A study of Mus musculus with 2 samples.

Results

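The cadherin genes followed across the nuclei of developing mouse kidneys were Cdh1, Cdh2, Cdh3, Cdh4, Cdh5, Cdh6, Cdh11, Cdh13 and Cdh16. They were taken as the 9 rows, of 32285 genes in each library, whose symbol matches one of these names, and all 9 were found at both ages. The data are 2 single-nucleus RNA sequencing libraries from whole kidneys pooled over males and females, an embryonic library (E18.5) and a postnatal library (P3), named by the day in their labels. The E18.5 kidneys carried floxed alleles of Myc and Mycn without Cre on a mixed background by the labels. The P3 kidneys were wild type and are labelled C57BL/6J, whereas the methods of the study give a mixed background for both. There was 1 library per age, the genotype, background, library and Cell Ranger release differed along with age, and these cannot be told apart. No test, standard error or p-value was therefore made, and each 95% interval in parentheses covers counting error only.

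Cadherins are calcium-dependent adhesion proteins that bind like molecules on neighbouring cells, and the tails of the classical members reach the actin cytoskeleton through the p120, beta and alpha catenins. Cdh1 (E-cadherin), Cdh2 (N-cadherin), Cdh3 (P-cadherin) and Cdh4 (R-cadherin) are type I classical cadherins, and Cdh5 (VE-cadherin), Cdh6 (K-cadherin) and Cdh11 (OB-cadherin) are grouped with type II. The remaining members are not classical: Cdh13 (T-cadherin) is held to the membrane by a lipid anchor and has no tail, and Cdh16 (kidney-specific cadherin) has a short tail without the catenin-binding region. In the kidney, mesenchymal progenitors turn into epithelial vesicles, and the resulting nephron joins the ureteric epithelium, a tube that is epithelial from the start. Exchange of mesenchymal for epithelial cadherins is a textbook feature of such transitions.

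After filtering and removal of called doublets, 17776 nuclei with 56415055 UMIs (unique molecular identifiers, a count of captured RNA molecules) remained at E18.5 and 9788 nuclei with 46246564 UMIs at P3, with medians of 2917.5 and 4054 UMIs a nucleus. Nuclei were clustered in each library without any cadherin gene, and a cluster received a name ending in -like only when markers outside the member list supported it. At least 3 of the listed markers were raised in every named class, with 3 of 6 in early nephron-like nuclei at E18.5 and in nephron progenitor-like nuclei at P3 as the thinnest cases. The 13 named classes were present at both ages, while 18.4% of nuclei at E18.5 and 30.6% at P3 stayed unnamed. Levels (CPM) are the UMIs of a gene for each 1000000 UMIs of a class. They are compared for 1 gene between classes and never between genes, since the genes differ in length: Cdh13 spans 1041 kb and Cdh16 spans 22.5 kb. A member was called raised in a class if the class held 10 or more of its UMIs and its level, after adding 10 CPM, was 2-fold or more that of the library's remaining nuclei. Leukocyte-like nuclei, which should lack most of these genes, served as a gauge of free RNA from broken cells.

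All 9 members were raised in at least 1 class at E18.5, where 26.3% of the 18448 genes tested were, and all 9 at P3, where 34.1% of 17734 were. The members were chosen with earlier results of these data known. The genes tested include any with at least 10 UMIs in a named class, so these figures do not measure enrichment of the family. At both ages Cdh2 was raised in nephron progenitor-like nuclei, Cdh4 in nephron progenitor-like and podocyte-like nuclei, Cdh6 in early nephron-like nuclei, Cdh11 in interstitium-like nuclei and Cdh5 in endothelium-like nuclei. Cdh3 was raised in ureteric epithelium-like nuclei at both ages, Cdh16 in distal tubule-like nuclei, Cdh13 in mural-like and early nephron-like nuclei, and Cdh1 in 5 epithelial classes. The class with the highest level had the same name at both ages for 6 of the 9 members, the exceptions being Cdh4, Cdh13 and Cdh16, and for 3 when clusters were made with 20 neighbours in place of 10. Down the order of the 13 classes there are 12 steps between neighbours, of which 1 to 5 per gene at E18.5 and 1 to 6 at P3 were larger than counting error, and neighbours at the other steps did not differ beyond it.

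**Figure D1:**
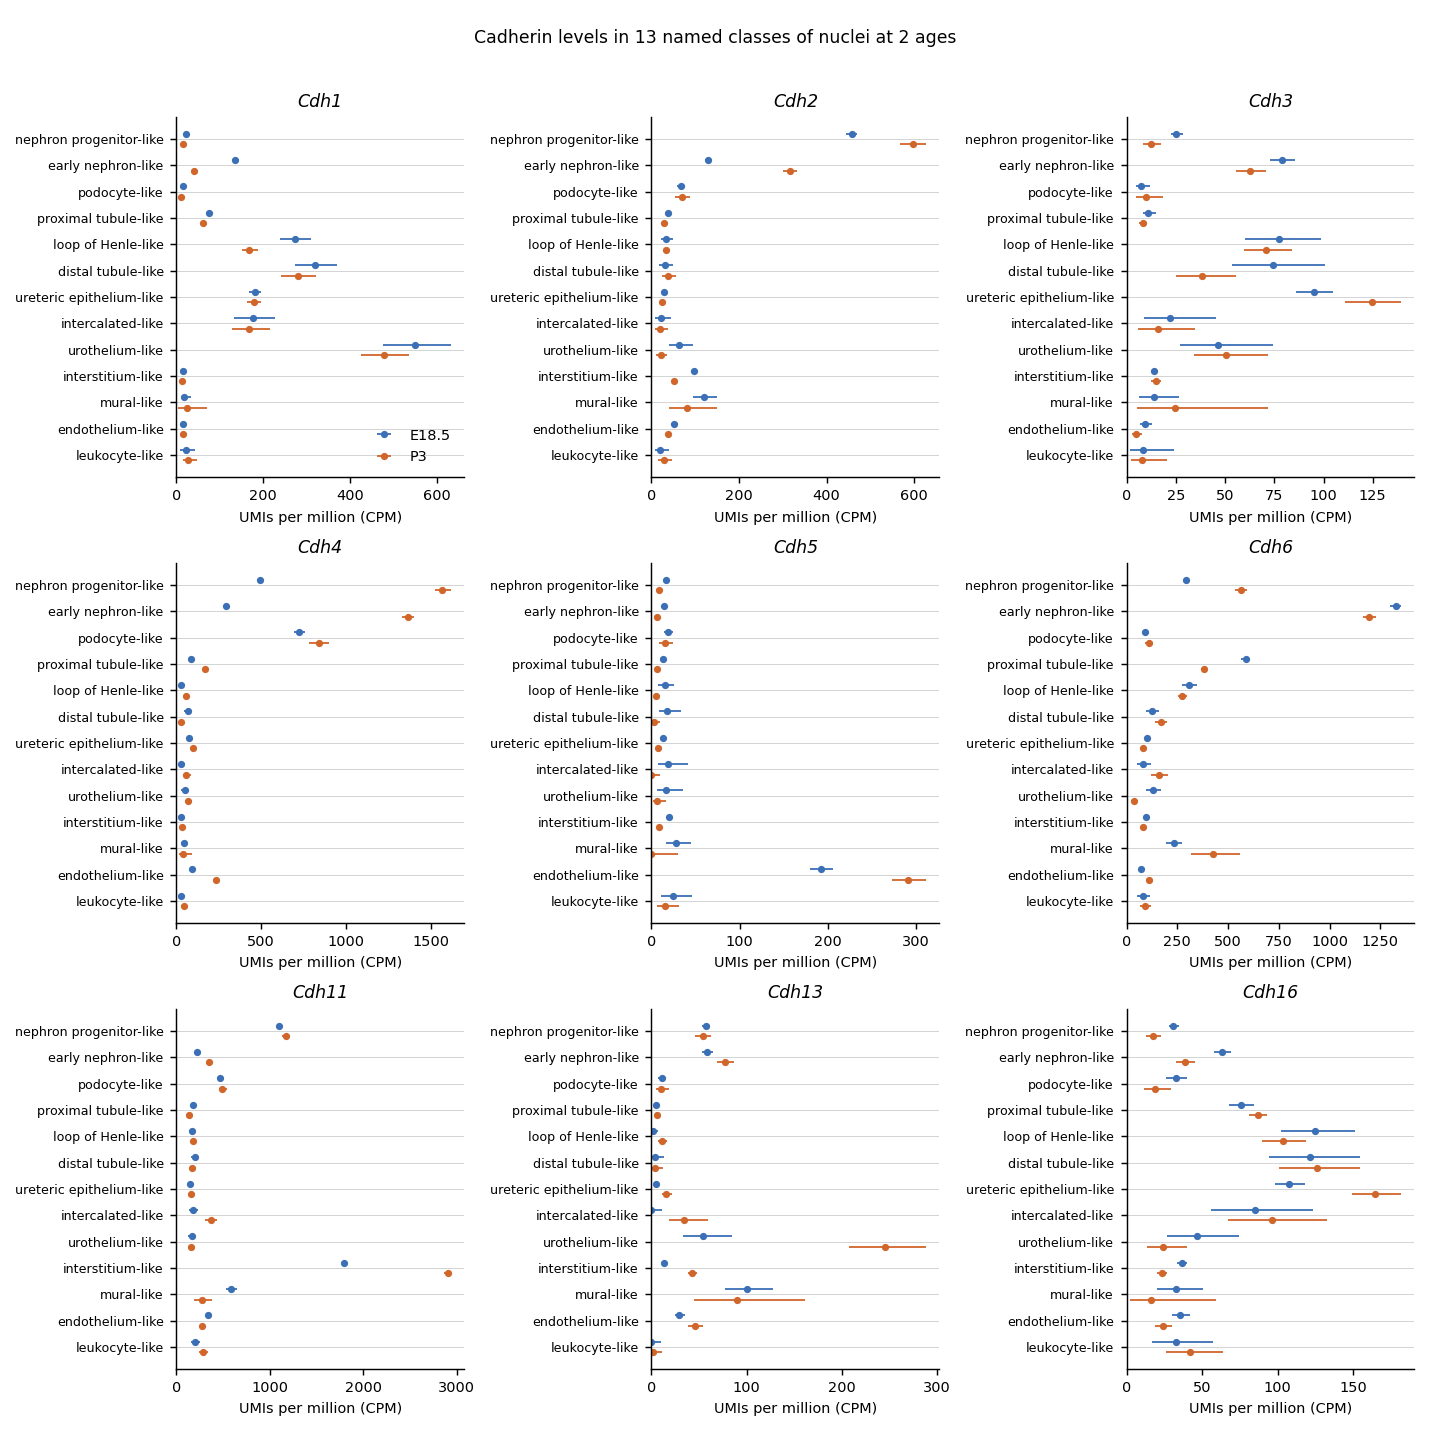
Level of each of the 9 cadherin genes (CPM, horizontal, linear from 0, with a range of its own in each panel) in the 13 named classes (vertical), with E18.5 in blue, P3 in orange and exact 95% Poisson intervals as bars. Panels differ in which classes are high, with Cdh5 at 193 and 292 CPM in endothelium-like nuclei; levels are to be read within a gene, not between genes.

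Cdh2 (chromosome 18, 16588877 to 16809246, minus strand; all positions are GENCODE M21 on mm10) encodes N-cadherin, the type I cadherin of mesenchyme and nerve. It stood at 457 CPM (445 to 470.4) in nephron progenitor-like nuclei at E18.5 and 597 CPM (568 to 626) at P3. After thinning each nucleus to 1000 UMIs, 35.0% and 42.2% of these nuclei held a Cdh2 UMI, against 3.27% and 3.45% of leukocyte-like nuclei. Early nephron-like nuclei came next at both ages, the progenitor level being 3.53 (3.30 to 3.78) times theirs at E18.5 and 1.89 (1.76 to 2.03) times at P3. Outside the nephron lineage, Cdh2 reached 119 CPM (94.0 to 149) in mural-like and 96.5 CPM (91.4 to 102) in interstitium-like nuclei at E18.5, and its intervals in the distal segments overlapped the leukocyte-like 19.0 CPM (7.65 to 39.2). The highest cluster at E18.5 was in fact a small unnamed one of 25 nuclei led by Ctnna2, Syt1 and Snap25, genes of neurons, at 545 CPM (429 to 683).

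Cdh4 (chromosome 2, 179442431 to 179899373, plus strand) encodes R-cadherin, described in the brain and in forming nephrons. At E18.5 it was highest in podocyte-like nuclei, at 724 CPM (692 to 757), ahead of nephron progenitor-like nuclei at 491 CPM (477 to 504) and early nephron-like nuclei at 294 CPM (282 to 306). At P3 podocyte-like nuclei came last of these 3: nephron progenitor-like nuclei had 1569 CPM (1522 to 1616), early nephron-like nuclei 1364 CPM (1329.5 to 1399.6) and podocyte-like nuclei 840.2 CPM (784 to 899). Thinned nuclei with a Cdh4 UMI made up 29.5% of the progenitor-like class at E18.5 and 64.5% at P3, with 1.31% and 5.17% in leukocyte-like nuclei. Endothelium-like nuclei also carried Cdh4, at 90.4 CPM (81.5 to 100.1) and 234 CPM (217 to 251), and proximal tubule-like nuclei at 85.0 CPM (76.5 to 94.1) and 171 CPM (163 to 179).

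Podocyte-like nuclei were not uniform in Cdh4. At P3, cluster 14, led by Ptpro, Nebl and Ndnf, had 2192 CPM (2038 to 2353), whereas cluster 24, led by Magi2 and Nphs1, had 133 CPM (107 to 164). The first was 16.4 (13.2 to 20.7) times the second, and it was also higher for Cdh2 at 3.91 (2.33 to 6.74) times, Cdh6 at 3.48 (2.32 to 5.28) times and Cdh11 at 1.92 (1.60 to 2.30) times. All 4 of these cadherins were thus higher in cluster 14, by different amounts.

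Cdh6 (chromosome 15, 13028701 to 13173675, minus strand) encodes K-cadherin, known from the renal vesicle and the precursors of the proximal tubule. Early nephron-like nuclei had 1326 CPM (1299.9 to 1352) at E18.5 and 1196 CPM (1164 to 1229) at P3, and thinned nuclei with a UMI made up 47.7% and 54.0% of that class against 9.80% and 6.32% of leukocyte-like nuclei. Proximal tubule-like nuclei followed at E18.5 with 586 CPM (564 to 609), and nephron progenitor-like nuclei at P3 with 562 CPM (535 to 591). The E18.5 lead of early nephron-like over proximal tubule-like nuclei, 2.26 (2.16 to 2.36) times, reversed under 3 alternatives in which clusters took other names. Under Leiden clustering, where the ratio was 0.478, both clusters of the class left it, cluster 2 going mostly (80.6%) to proximal tubule-like and cluster 5 (98.6%) to distal tubule-like nuclei. With called doublets kept, where the ratio was 0.245, most of cluster 2 (74.0%) was named proximal tubule-like. With 20 neighbours, where it was 0.671, most of cluster 2 (97.9%) was unnamed.

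E18.5 cluster 2, of 1122 nuclei led by Grid1, Stxbp5l and Dmd, was the highest of its library for Cdh6, at 2164 CPM (2119 to 2209), and the matching P3 cluster 8, also led by Grid1 and Stxbp5l, was the highest there, at 2365 CPM (2284 to 2448). The other E18.5 early nephron-like cluster, 5, led by Nrcam, Spon1 and Lgr5, had 381 CPM (361 to 401). Cluster 2 was 5.69 (5.37 to 6.02) times cluster 5 for Cdh6, but 0.323 (0.280 to 0.371) times for Cdh1, 0.288 (0.238 to 0.347) times for Cdh3 and 0.489 (0.448 to 0.533) times for Cdh4. The early nephron-like class of the embryo therefore held a Cdh6-high population next to one with more Cdh1, Cdh3 and Cdh4. At P3, cluster 12, led by Nell1, Uncx and Lhx1, had the most Cdh4 of the 3 early nephron-like clusters, at 1945 CPM (1888 to 2004), and cluster 8 had 0.0745 (0.0642 to 0.0859) times as much Cdh4 and 3.23 (3.04 to 3.43) times as much Cdh6. Cluster 22, led by Kcnh8, Rmst and Lrp4, held as much Cdh4 as cluster 12 within counting error, at 0.966 (0.908 to 1.03) times, together with 5.41 (4.14 to 7.11) times its Cdh3, 3.15 (2.46 to 4.04) times its Cdh13 and 3.13 (2.01 to 4.86) times its Cdh1.

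**Figure D2:**
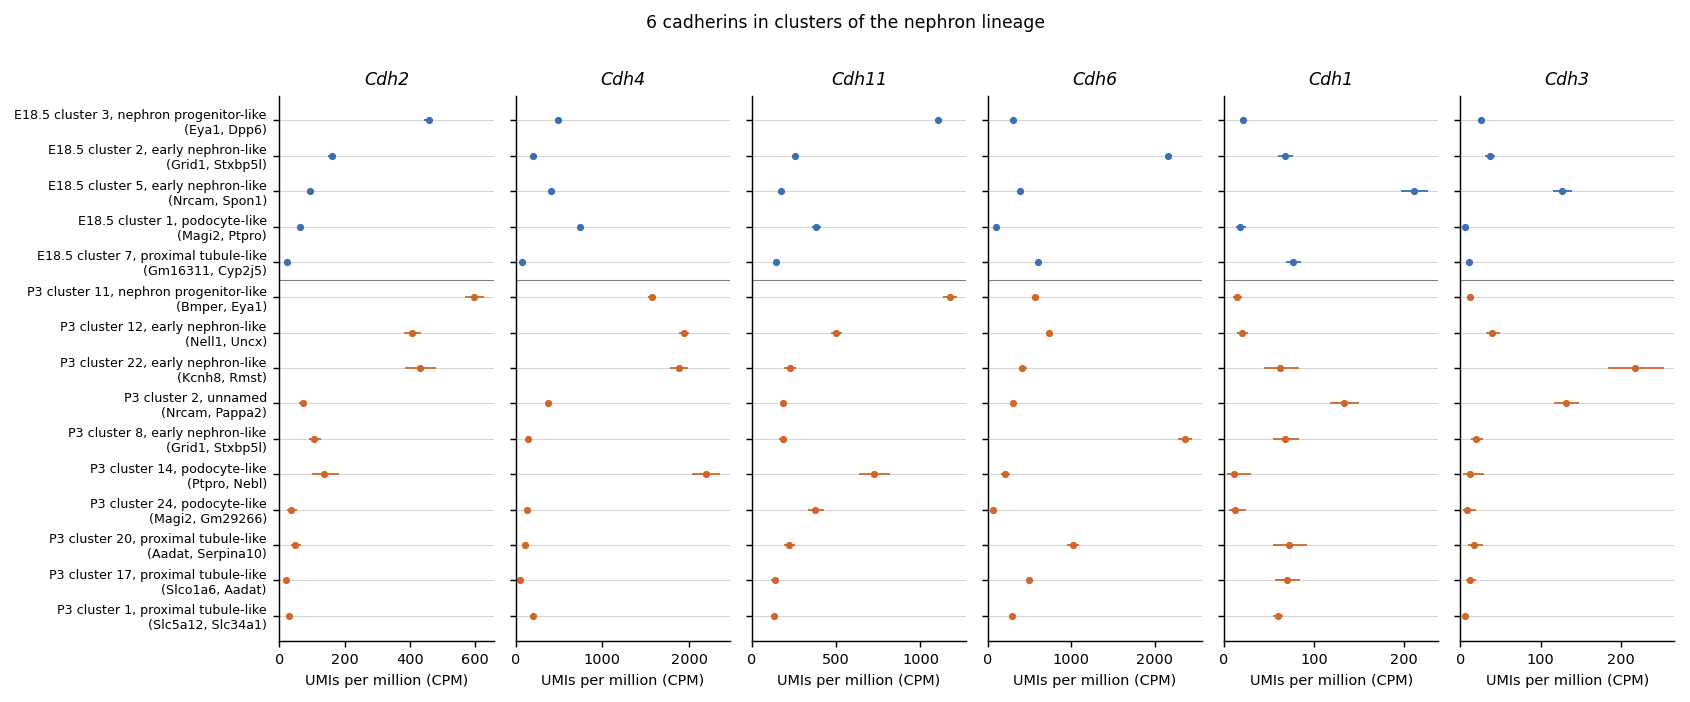
Levels of Cdh2, Cdh4, Cdh11, Cdh6, Cdh1 and Cdh3 (CPM, horizontal, linear from 0, 1 panel each) in clusters of the nephron lineage (vertical, with 2 leading genes each), E18.5 in blue and P3 in orange, with exact 95% Poisson intervals as bars. Cdh6 peaks in the Grid1-led clusters at 2164 and 2365 CPM, and Cdh4 peaks in P3 podocyte-like cluster 14 at 2192 CPM.

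Cdh6 also differed between proximal tubule-like clusters. At P3, cluster 1, led by the solute carriers Slc5a12 and Slc34a1, had 288 CPM (276 to 301), cluster 17, led by Slco1a6 and Slc7a12, had 489 CPM (454 to 526), and cluster 20, led by Aadat and Serpina10, had 1019 CPM (951 to 1090.3). Cluster 20 was 3.53 (3.26 to 3.83) times cluster 1. Split by Slc34a1, the phosphate transporter of the brush border, P3 proximal tubule-like nuclei had 351 CPM (338 to 363) with a UMI and 872 CPM (797 to 952) without one. Cdh4 went the other way, at 177 CPM (168 to 186) with a Slc34a1 UMI and 72.1 CPM (51.7 to 97.8) without. The median depth was 6344 UMIs with and 5601 without, and its part was not tested. At E18.5 the Cdh6 levels were nearer each other, 578 CPM (555 to 602) and 684 CPM (597 to 779). Loop of Henle-like nuclei also held Cdh6, at 309 CPM (273 to 349) and 275 CPM (252 to 299). An unnamed P3 cluster led by Sgcz, Ranbp3l and Prox1 had 917 CPM (828 to 1014). It had 2316 CPM of the loop gene Slc12a1, but only 2 of the 6 loop markers were raised in it. Of its 89 nuclei, 59 were named proximal tubule-like under Leiden clustering and 58 with 20 neighbours. With doublets kept 87 were unnamed, and 79 when nuclei were assigned on their own. Mural-like nuclei, whose P3 cluster is led by the renin gene Ren1, had the most Cdh6 outside the nephron among named classes, at 232 CPM (196 to 273) and 426 CPM (318 to 558).

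Cdh11 (chromosome 8, 102632095 to 102785642, minus strand) encodes OB-cadherin, the type II cadherin of connective tissue, and 4 annotated genes overlap it on the same strand, so that its reads may be shared. It stood at 1795 CPM (1773 to 1817) in interstitium-like nuclei at E18.5 and 2905 CPM (2869.7 to 2941) at P3, with thinned shares of 77.7% and 90.6%. Nephron progenitor-like nuclei, the other mesenchymal population, followed with 1105 CPM (1085 to 1125) and 1173 CPM (1133 to 1215). Leukocyte-like nuclei held 201 CPM (158 to 253) at E18.5 and 284 CPM (239.7 to 335) at P3, and values near these in epithelial classes cannot be told from free RNA. Interstitium-like nuclei were 8.92 (7.10 to 11.4) times the leukocyte-like level at E18.5 and 10.2 (8.67 to 12.1) times at P3. Small clusters of deep nuclei stood apart in 4 cases. E18.5 endothelium-like cluster 12, of 102 nuclei with a median of 5655 UMIs, had 1187 CPM (1104 to 1274) against 179 CPM (165 to 193) in the main cluster 9 with a median of 2886. The corresponding values were 1171 CPM (1047 to 1306) in podocyte-like cluster 15, 703 CPM (608 to 809) in proximal tubule-like cluster 21 and 1460.0 CPM (1294 to 1642) in P3 endothelium-like cluster 21, with medians of 6355, 7360 and 8532.5 UMIs. The part of depth or of doublets that were not called was not tested.

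Cdh1 (chromosome 8, 106603351 to 106670246, plus strand) encodes E-cadherin, the type I cadherin of epithelia. Its highest level was in urothelium-like nuclei, at 549.9 CPM (476 to 631) at E18.5 and 479 CPM (425 to 537) at P3, where 40.4% and 27.3% of thinned nuclei held a UMI against 2.61% and 2.87% of leukocyte-like nuclei. Distal tubule-like nuclei had 319 CPM (274 to 370.2) and 279.8 CPM (242 to 322), and loop of Henle-like nuclei 273 CPM (239.5 to 310.5) and 168 CPM (151 to 188). Cdh1 was raised in 6 classes at E18.5 and in 5 at P3, early nephron-like nuclei being the difference. At E18.5 that class included the Nrcam-led cluster 5, with 212 CPM. The Nrcam-led P3 cluster 2, with 133 CPM, was unnamed and so lay outside it. Proximal tubule-like nuclei had less, at 75.2 CPM (67.3 to 83.9) and 62.2 CPM (57.3 to 67.3), and nephron progenitor-like nuclei had 21.3 CPM (18.6 to 24.3) and 14.5 CPM (10.4 to 19.8), near the leukocyte-like 21.8 CPM (9.39 to 42.9) and 27.8 CPM (15.2 to 46.7). Ureteric epithelium-like and intercalated-like nuclei had 181 and 176 CPM at E18.5 and 178 and 168 CPM at P3.

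Cdh3 (chromosome 8, 106510891 to 106557297, plus strand), P-cadherin, lies 46.1 kb before Cdh1 on the same strand. Its highest class was ureteric epithelium-like nuclei, at 95.0 CPM (85.9 to 105) at E18.5 and 124 CPM (111 to 139) at P3. At E18.5 it was also raised in early nephron-like nuclei, at 79.1 CPM (73.0 to 85.7), and loop of Henle-like nuclei, at 77.6 CPM (60.1 to 98.5). The ureteric lead at E18.5 was 1.20 (1.06 to 1.36) times. It turned to 0.775 with called doublets kept, 0.752 with 20 neighbours and 0.881 with nuclei assigned on their own. The order of these classes at E18.5 is therefore not settled. At P3 loop of Henle-like nuclei came next and the lead was 1.75 (1.43 to 2.16) times. That order holds for named classes, not for clusters. At P3 early nephron-like cluster 22 had 217 CPM, above the ureteric epithelium-like clusters given below, while cluster 12 had 40.0 CPM. The unnamed Nrcam-led P3 cluster 2 had 131 CPM. Within ureteric epithelium-like nuclei Cdh3 was higher where Ret, the receptor of the branching tip, was higher. E18.5 cluster 10, with 111 CPM of Ret, had 135 CPM (121 to 151) of Cdh3, and cluster 4, with 4.24 CPM of Ret, had 44.5 CPM (35.5 to 55.1). At P3 the Ret-high cluster 6 had 154 CPM (134 to 176) and cluster 18 had 83.5 CPM (66.8 to 103). Ret-high clusters were also higher for Cdh4, at 1.74 (1.36 to 2.22) times at E18.5 and 2.34 (1.73 to 3.22) times at P3, and for Cdh6, at 1.96 (1.59 to 2.44) and 2.11 (1.53 to 2.95) times. Split by a Ret UMI, ureteric epithelium-like nuclei with one had 1.74 (1.39 to 2.17) times the Cdh3 of those without at E18.5 and 2.16 (1.68 to 2.75) times at P3. The median depth with and without a Ret UMI was 3603 and 3212 UMIs at E18.5 and 5208 and 5025 at P3.

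**Figure D3:**
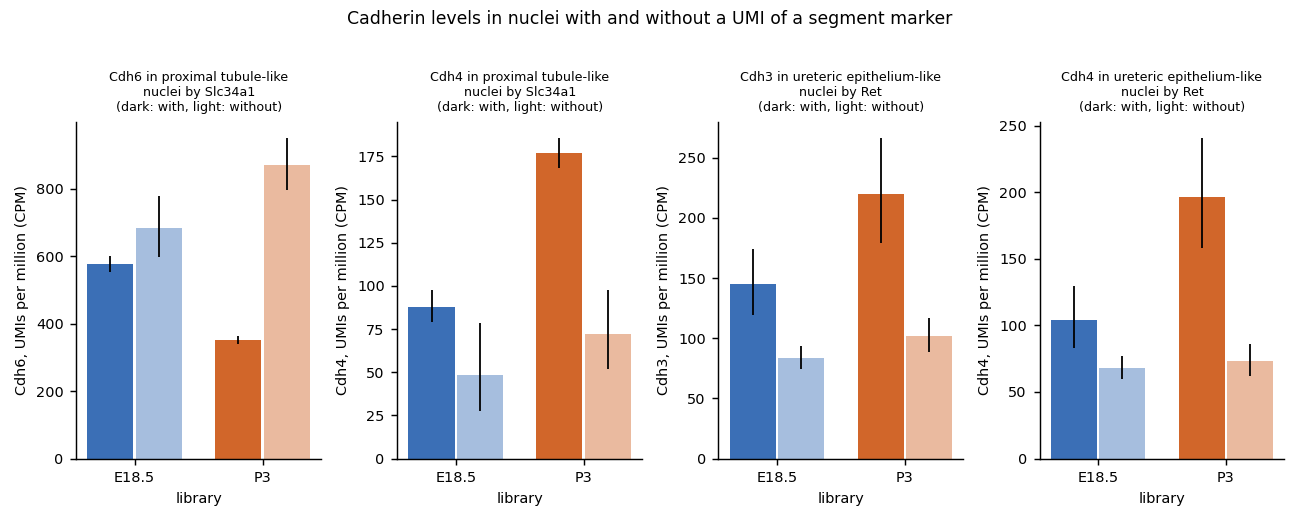
Bars give the levels of Cdh6 and Cdh4 in proximal tubule-like nuclei and of Cdh3 and Cdh4 in ureteric epithelium-like nuclei (CPM, vertical), with (dark) and without (light) a UMI of 1 marker, at E18.5 (blue) and P3 (orange), and lines the exact 95% Poisson intervals. At P3, Cdh6 is higher in proximal tubule-like nuclei without a Slc34a1 UMI and Cdh4 in those with one, and Cdh3 is higher in ureteric epithelium-like nuclei with a Ret UMI at both ages.

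Cdh16 (chromosome 8, 104601911 to 104624396, minus strand) encodes kidney-specific cadherin of the basolateral membrane of tubules. Its levels were similar across the distal nephron and the ureteric epithelium: 125 CPM (103 to 151) in loop of Henle-like, 122 CPM (94.2 to 154) in distal tubule-like and 108 CPM (98.0 to 118) in ureteric epithelium-like nuclei at E18.5. The leading class exceeded the next by 1.03 (0.751 to 1.42) times at E18.5, within counting error, and by 1.31 (1.04 to 1.67) times at P3, where ureteric epithelium-like nuclei led with 165 CPM (149 to 182). Proximal tubule-like nuclei had 75.7 CPM (67.7 to 84.4) and 86.8 CPM (81.0 to 92.9), while urothelium-like nuclei, which lead for Cdh1, had 46.5 CPM (27.1 to 74.5) and 24.4 CPM (13.7 to 40.3). Leukocyte-like nuclei held 32.6 CPM (16.9 to 57.0) and 41.8 CPM (25.9 to 63.8), and the leading class was 3.83 (2.11 to 7.65) and 3.95 (2.55 to 6.44) times that. Unlike Cdh3, Cdh16 was lower in the Ret-high cluster of the ureteric epithelium-like class, at 0.645 (0.533 to 0.779) times the other at E18.5 and 0.725 (0.594 to 0.885) times at P3.

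Cdh5 (chromosome 8, 104101625 to 104144511, plus strand) encodes VE-cadherin of the endothelial junction and was raised in 1 class. Endothelium-like nuclei had 193 CPM (179 to 206) at E18.5 and 292 CPM (273 to 311) at P3, 6.82 (4.28 to 11.6) and 18.3 (9.27 to 42.6) times the next class. Thinned nuclei with a UMI were 16.9% and 24.7% of the class, and between 0.812% and 3.11% of every other named class at E18.5. Among endothelium-like clusters at P3, cluster 28, led by Sox17 with Vegfc among its leading genes, had 351 CPM (274 to 442) and the main cluster 4 293 CPM (273 to 313), a ratio of 1.20 (0.927 to 1.53). The same pair differed in Cdh13, 3.02 (1.83 to 4.78) times, and in Cdh4, 0.217 (0.108 to 0.391) times.

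Cdh13 (chromosome 8, 118283733 to 119324921, plus strand, with 1 overlapping gene on its strand) encodes T-cadherin, known as a receptor for adiponectin in vessels. Leukocyte-like nuclei held 0 Cdh13 UMIs at E18.5 and 1 at P3. At E18.5 mural-like nuclei, the smooth muscle and pericyte side of the vessel, had 100.4 CPM (77.3 to 128), early nephron-like nuclei 58.6 CPM (53.3 to 64.2) and nephron progenitor-like nuclei 57.2 CPM (52.7 to 61.9). The lead of mural-like over early nephron-like nuclei, 1.71 (1.30 to 2.23) times, turned to 0.413 when each nucleus was assigned on its own. All 198 nuclei of the E18.5 mural-like cluster were unnamed under Leiden clustering, and 197 of them with 20 neighbours. At P3 urothelium-like nuclei led with 246 CPM (208 to 288), from 151 UMIs in 66 nuclei, and 16.7% of thinned nuclei held a UMI. Mural-like nuclei had 90.0 CPM (44.9 to 161) there, from 32 nuclei. Within the interstitium-like class, Cdh13 differed more between clusters than Cdh11 did. P3 cluster 19, led by Clca3a1, Zim1 and Col14a1, was 8.37 (6.21 to 11.5) times cluster 7, led by Zfp536, for Cdh13 and 1.17 (1.14 to 1.20) times for Cdh11. At E18.5 cluster 8 was 4.70 (2.68 to 9.02) times cluster 11 for Cdh13, 0.527 (0.471 to 0.590) times for Cdh2 and 0.504 (0.450 to 0.565) times for Cdh6.

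Between the ages, a member was counted in a class when its level at P3 was at least 2 times or at most 0.5 times that at E18.5, with 10 CPM added to both and at least 10 UMIs at the higher age. This was so for 13 of 117 pairs of member and class. Over all genes, the share past 2-fold in this way ranged from 3.91% in endothelium-like to 25.6% in mural-like nuclei. The median over all genes of this comparison ranged from -0.29 in mural-like to 0.03 in leukocyte-like nuclei on the log2 scale. In nephron progenitor-like nuclei it was 1 of 9 members, where 3.94% of all genes tested were past 2-fold: Cdh4, at 3.20 (3.07 to 3.33) times. This call rests on the naming of P3 cluster 11, all 538 nuclei of which were unnamed under Leiden clustering, with 20 neighbours and with doublets kept, so that it could not be formed there. In early nephron-like nuclei it was 3 members, against 4.84% of genes: Cdh4 at 4.64 (4.42 to 4.88) times and Cdh2 at 2.44 (2.25 to 2.65) times were higher at P3, and Cdh1 at 0.309 (0.262 to 0.362) times was lower. The calls for Cdh4 and Cdh2 rest on the naming of P3 clusters 12 and 22, which changed under the alternatives, as given below. In endothelium-like nuclei Cdh4 was 2.59 (2.28 to 2.94) times its E18.5 level, against 3.91% of genes. In interstitium-like nuclei Cdh13 was 3.28 (2.74 to 3.94) times, against 4.92%, and the class held different clusters at the ages. The E18.5 value also rests on the naming of cluster 8. Of its 3030 nuclei, 2939 were unnamed under Leiden clustering and 3013 with 20 neighbours, while 2848 stayed interstitium-like with doublets kept. The Zfp536-led clusters had 16.7 CPM at E18.5 and 10.2 CPM at P3, while P3 cluster 19 had 85.1 CPM. Those Zfp536-led clusters share fewer than 4 of their 10 leading genes. The only clusters named interstitium-like at both ages that share at least 4 are E18.5 cluster 19 and P3 cluster 29. Between them Cdh13 was 7.18 (2.70 to 22.2) times at P3. Urothelium-like nuclei had 3 members past 2-fold, against 10.2% of genes: Cdh13 at 4.49 (2.81 to 7.56) times, from 20 and 151 UMIs, Cdh2 at 0.336 (0.156 to 0.692) times, from 23 and 13, and Cdh6 at 0.279 (0.160 to 0.471) times, from 47 and 22.

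The remaining calls were in mural-like, intercalated-like and distal tubule-like nuclei. In mural-like nuclei, where 25.6% of genes were past 2-fold and P3 had 32 nuclei, the UMIs of Cdh5 went from 18 in the embryo to 0, a ratio whose interval reaches 1.19 and so includes no difference, and Cdh11 was 0.461 (0.313 to 0.659) times, from 373 and 33 UMIs. In intercalated-like nuclei, where 17.0% of genes were past 2-fold, the UMIs of Cdh13 numbered 0 in the embryo and 13 after birth. In distal tubule-like nuclei, where 12.0% of genes were, Cdh5 had 10 and 2 UMIs. At E18.5 the Cdh5 levels behind these calls were near the leukocyte-like 24.5 CPM. They were 28.2 CPM in mural-like and 18.1 CPM in distal tubule-like nuclei. The P3 Cdh11 level in mural-like nuclei, 270 CPM, was near the leukocyte-like 284 CPM. The part of free RNA in these calls was not tested. No member was past 2-fold in leukocyte-like, loop of Henle-like, podocyte-like, proximal tubule-like or ureteric epithelium-like nuclei, where 15.1%, 6.03%, 4.46%, 5.05% and 4.84% of genes were. With 1 CPM added in place of 10, the pairs came to 21, and the share over all genes at that setting is not given here.

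**Figure D4:**
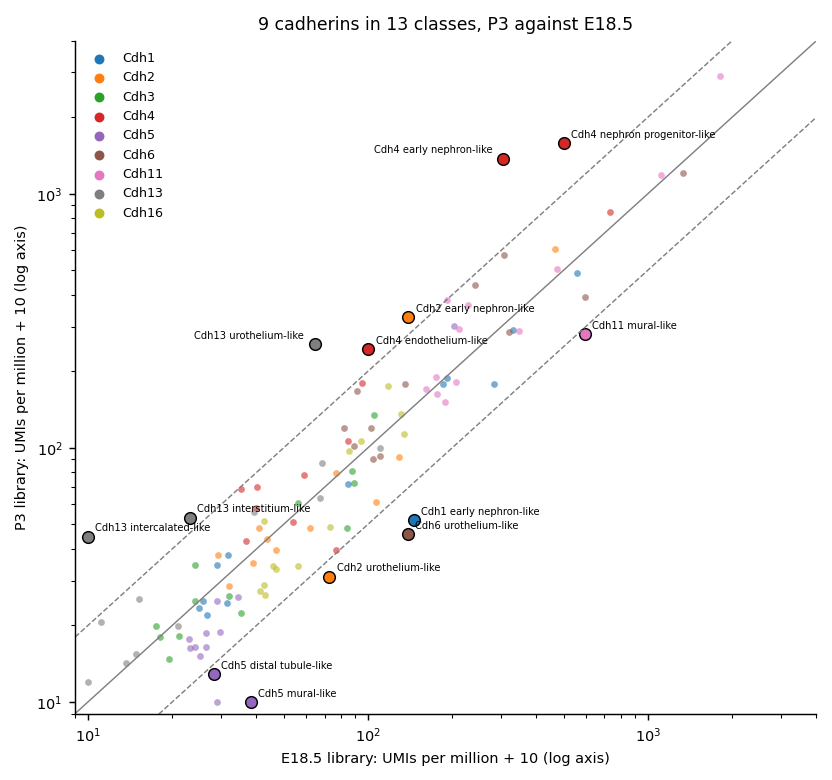
Level of each cadherin in each class at P3 (vertical) against E18.5 (horizontal), in CPM with 10 CPM added, both axes logarithmic, 1 point per member and class, coloured by member, with a solid line at equality and dashed lines at 2-fold either way. Pairs past 2-fold are ringed and labelled. Cdh4 in early nephron-like nuclei lies well above the upper dashed line, at 294 and 1364 CPM before the addition.

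The early nephron-like class was made of different clusters at the ages, which bears on its 3 calls. At E18.5 it held cluster 2, led by Grid1, and cluster 5, led by Nrcam; at P3 it held the Grid1-led cluster 8 and clusters 12 and 22, while the Nrcam-led P3 cluster 2 had too few raised markers to be named. Clusters that share at least 4 of their 10 leading genes were therefore set side by side, a pairing chosen after the data were seen. From Grid1-led to Grid1-led cluster, Cdh4 was 0.736 (0.626 to 0.861) times at P3, Cdh2 0.670 (0.556 to 0.802) times, Cdh6 1.09 (1.05 to 1.14) times and Cdh1 0.991 (0.774 to 1.26) times. From Nrcam-led to Nrcam-led cluster, Cdh4 was 0.940 (0.861 to 1.03) times, Cdh1 0.630 (0.547 to 0.725) times and Cdh3 1.03 (0.886 to 1.20) times. In neither pair was Cdh4 or Cdh2 past 2-fold higher, so the higher class values of Cdh4 and Cdh2 moved with clusters 12 and 22, which have no E18.5 partner. Nor was Cdh1 past 2-fold lower in either pair, so its lower class value also rests on which clusters were named. Of the 352 nuclei of cluster 12, 350 were unnamed under Leiden clustering, 272 with 20 neighbours and 338 with doublets kept. Of the 102 nuclei of cluster 22, 93 were named distal tubule-like under Leiden clustering. All 102 were unnamed with doublets kept, and 101 stayed early nephron-like with 20 neighbours. In the progenitor-like clusters, which are 1 cluster at each age, Cdh4 at 3.20 (3.07 to 3.33) times and Cdh6 at 1.91 (1.79 to 2.03) times were higher at P3 and Cdh3 at 0.487 (0.331 to 0.698) times was lower, though only Cdh4 was past 2-fold with 10 CPM added. The progenitor-like nuclei themselves differed: 272 of 2937 held a UMI of the progenitor gene Cited1 at E18.5, and 4 of 538 at P3.

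Podocyte-like nuclei showed how a class value can hide its clusters. Cdh4 as a whole was 1.16 (1.07 to 1.26) times at P3, yet between the large clusters led by Magi2 and Nphs1 it was 0.181 (0.144 to 0.224) times, while P3 cluster 14 had 2192 CPM. The only E18.5 cluster to share 4 leading genes with cluster 14 was the small deep cluster 15, with 604 CPM, which shared more with cluster 24. A low and a high cluster thus lay under a class value near that of the embryo. For endothelium-like nuclei the main clusters gave 2.64 (2.31 to 3.02) times for Cdh4 and 1.42 (1.28 to 1.57) times for Cdh5. The E18.5 interstitium-like cluster 11 and the unnamed P3 cluster 3 that shares its leading genes differed 1.55 (1.49 to 1.60) times for Cdh11 and 6.47 (3.60 to 12.6) times for Cdh13.

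Members with overlapping classes were then counted in the same nuclei, after thinning to 1000 UMIs, against the number of shared nuclei that their separate shares give. Of 260 combinations of 10 pairs and 26 classes, 49 had at least 10 nuclei with both genes, and 46 of these lay within 1.5 times of the expected number. Keeping combinations by the observed number drops some that fell short of the expected one, so this count cannot show how often members avoid each other. Cdh2 and Cdh11 shared nephron progenitor-like nuclei at 1.04 (0.963 to 1.13) times the expected number at E18.5, and at P3 in 141 nuclei against 141 expected. Cdh1 and Cdh6 in early nephron-like nuclei at E18.5 were below it, at 0.683 (0.544 to 0.846) times, but within the Grid1-led cluster the ratio was 1.07 (0.801 to 1.41) and within the Nrcam-led cluster 0.786 (0.534 to 1.12). Cdh4 and Cdh6 shared early nephron-like nuclei at 0.771 (0.654 to 0.904) and 0.802 (0.681 to 0.939) times the expected number, and progenitor-like nuclei at 1.43 (1.24 to 1.64) and 1.07 (0.901 to 1.27) times. Within the early nephron-like clusters this ratio was 0.989 (0.817 to 1.19) in cluster 2 and 0.695 (0.489 to 0.958) in cluster 5 at E18.5, and 1.05 (0.674 to 1.57), 0.987 (0.815 to 1.18) and 0.850 (0.476 to 1.40) in clusters 8, 12 and 22 at P3, so only embryonic cluster 5 was below the expected number beyond counting error. Cdh1 and Cdh16 in early nephron-like nuclei at E18.5, at 1.51 (0.976 to 2.23) times, were among the 3 combinations past 1.5.

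Partners of the cadherins were counted over lists made by role. Of 11 catenins and linkers, which join cadherin tails to actin, 4 were raised in a class at E18.5 and 6 at P3, beside 26.3% and 34.1% of all genes tested. The general partners Ctnnb1, Ctnnd1 and Ctnna1 were raised in none. Ctnna3, alpha-T-catenin, was highest in mural-like nuclei, with 1034 CPM at E18.5 and 3936 CPM at P3. It was also raised in intercalated-like nuclei at E18.5 and in endothelium-like nuclei at P3. Ctnnd2, delta-catenin, had 557 and 703 CPM in ureteric epithelium-like nuclei, where Cdh3 was also raised at both ages. Urothelium-like nuclei were raised for Ctnnd2 at both ages too. Jup, plakoglobin, was raised in endothelium-like nuclei at both ages, with 104 CPM at P3, and also in urothelium-like nuclei at E18.5, with 87.5 CPM. Pkp4 was raised at E18.5 in loop of Henle-like nuclei, at 582 CPM, and in distal tubule-like nuclei. Arvcf, Ctnna2 and Vcl were raised at P3 in podocyte-like, proximal tubule-like and mural-like nuclei, at 98.6, 142 and 426 CPM.

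Of 4 nectins, the adhesion proteins that work beside cadherins, 3 were raised at each age, beside 26.3% and 34.1% of all genes tested. In urothelium-like nuclei, Nectin1 was raised at both ages, at 107 and 166 CPM, and Nectin4 at 73.9 and 81.4 CPM. Nectin4 was also raised in podocyte-like nuclei at P3. Nectin3 was raised at E18.5 in ureteric epithelium-like nuclei, at 300.4 CPM, and had 304 CPM there at P3 without being called raised. Nectin2 was raised at P3 in urothelium-like nuclei, at 92.8 CPM, and in endothelium-like nuclei. Among 14 other cadherins, 11 had enough UMIs to be tested at E18.5 and 8 at P3. Of these, 4 and 5 were raised, beside the same shares of all genes tested. Cdh20 led in urothelium-like nuclei with 257 and 404 CPM, Cdh22 in nephron progenitor-like nuclei with 14.4 and 51.2 CPM, Cdh18 in interstitium-like nuclei with 26.5 and 32.1 CPM and Cdh23 in leukocyte-like nuclei with 95.2 and 33.8 CPM, and Cdh12 joined Cdh22 at P3 with 21.8 CPM. Among transcription factors known to act on cadherin genes, Grhl2, an activator of Cdh1, was raised in the same 6 classes as Cdh1 at E18.5 and the same 5 at P3, with 238 CPM in urothelium-like nuclei at E18.5. Erg, which acts on Cdh5, was raised in endothelium-like nuclei at 256 and 307 CPM. The Cdh1 repressors Zeb1 and Zeb2 were highest in endothelium-like and leukocyte-like nuclei at E18.5, at 1173 and 3105 CPM. Both were also raised in interstitium-like nuclei at E18.5, as was Zeb2 at P3, where it was highest in that class at 3821 CPM. Twist2 was raised in interstitium-like nuclei at both ages, at 22.9 and 26.1 CPM, while Snai1, Snai2 and Twist1 were raised in none.

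The genes outside the family whose levels followed a member most closely were ranked by Pearson's r of log2(CPM + 10) over the 26 class values, from 5628 candidates; these values share libraries and depth and are given as a description. Cdh1 was nearest to Spint2 (0.965), Paqr5 (0.950) and Grhl2 (0.947), Cdh5 to the endothelial receptor Kdr (0.951), Plvap (0.950) and Bcl6b (0.949), and Cdh16 to Cdkl1 (0.934), Arhgef38 (0.917) and Akr1c19 (0.897). Cdh2 was nearest to Eya4 (0.908), Ism1 (0.877) and Lrig3 (0.872), Cdh11 to Tnc (0.898), Gm29683 (0.892) and Gpr176 (0.887), and Cdh4 to Sulf1 (0.867), Prtg (0.853) and Wt1 (0.815), Wt1 and Kdr being among the class markers. The genes nearest to Cdh3 were Hoxb4 (0.866), Prdm16 (0.859) and Gm11536 (0.859), to Cdh13 Ctif (0.859), Pard6g (0.788) and 2610307P16Rik (0.773), and to Cdh6 Clec18a (0.801), Adgra3 (0.772) and Grid1 (0.759). Grid1 is also the leading gene of the Cdh6-high clusters at both ages.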

How the data were processed

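Whole kidneys were snap-frozen, nuclei were released by Dounce homogenisation and libraries were made with Chromium 3' chemistry. The deposited matrices hold UMI counts per gene and nucleus from the authors' Cell Ranger run. The submitters' processing notes give release 5.0.1 and mm10, whereas the deposited headers name release 7.0.0 for the E18.5 file and 5.0.1 for the other; whether intronic reads were counted is not given in the sources used here.

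Of 21600 and 12216 barcodes, 69 of them shared, 21270 and 11765 passed filters at 3 median absolute deviations on UMIs, genes and mitochondrial share. Scrublet (scanpy 1.11.5) called 16.4% and 16.8% of these as doublets, which were removed. Nuclei were clustered with scran 1.30.0 (2000 variable genes without cadherins, 50 components, 10 neighbours, Walktrap). A cluster took the class with the highest share of its markers raised, if at least 3 were. It stayed unnamed if a second class, also with at least 3 raised, had a share above 0.8 of the first. It also stayed unnamed if another class had more markers among the 10 leading genes, or if it was shallow with none of its own there. Mural-like clusters needed a marker among the 10 leading genes, a rule added after clusters were seen. The members, lists and markers were chosen with earlier results of these data known. Named genes were all members, list genes raised in a class, markers, leading genes, and the 3 genes most like each member among those with at least 100 CPM in 1 class. Level intervals are exact Poisson, and ratio intervals exact conditional binomial. Alternatives were Leiden clusters, 20 neighbours, doublets kept, nuclei assigned on their own, means of nuclei, 1 CPM added and thinning to 2000 UMIs. Some list genes and markers are not reported here. The ratio intervals were tested on simulated counts with known folds.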

Additional observations from a re-analysis of the deposited data

Results flagged for a closer look

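The order of 2 classes differed between the ages in the 2 flagged comparisons, for Cdh4 and Cdh13. This was not tested as a difference because each age is 1 library. Other orders differed too. Cdh1 in early nephron-like over proximal tubule-like nuclei was 1.80 times (1.59 to 2.05) at E18.5. At P3 proximal tubule-like nuclei were 1.48 times (1.25 to 1.76) the early nephron-like level. For Cdh6, proximal tubule-like nuclei had more than nephron progenitor-like nuclei at E18.5 and less at P3. Cdh4 in podocyte-like over nephron progenitor-like nuclei was 1.48 times (1.40 to 1.56) in the embryo and 0.536 times (0.497 to 0.577) after birth. The P3 value could not be formed under Leiden clustering, with 20 neighbours or with doublets kept, where all 538 nuclei of the P3 progenitor-like cluster were unnamed. Cdh13 in urothelium-like over mural-like nuclei was 0.545 times (0.312 to 0.912) in the embryo and 2.73 times (1.48 to 5.59) after birth, where the mural-like class held 32 nuclei. Under Leiden clustering all 198 nuclei of the E18.5 mural-like cluster and all 32 of the P3 one were unnamed. So were 87 of the 89 nuclei of the E18.5 urothelium-like cluster. With 20 neighbours, 197 of the 198 E18.5 mural-like nuclei were unnamed.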

How the results depend on the processing

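No paired analysis was possible because there was 1 library per age. The count of members raised in a class, 9 at each age, was between 6 (Leiden clusters, 20 neighbours) and 9 at E18.5 and between 8 (Leiden clusters, doublets kept) and 9 at P3. The 13 pairs of member and class past 2-fold between the ages became 7 with Leiden clusters, where 7 classes were named at both ages, and 21 with 1 CPM added. The shares over all genes under these settings are not given here. The 6 members with a leading class of the same name became 3 with 20 neighbours, and the 3 co-detections past 1.5 became 6 with nuclei thinned to 2000 UMIs. The E18.5 ratio of ureteric epithelium-like to early nephron-like nuclei for Cdh3 was 0.775 with doublets kept, 0.752 with 20 neighbours and 0.881 with nuclei assigned on their own. That of early nephron-like to proximal tubule-like nuclei for Cdh6 was 0.245 with doublets kept, 0.478 with Leiden clusters and 0.671 with 20 neighbours, alternatives in which its clusters took other names. That of mural-like to early nephron-like nuclei for Cdh13 was 0.413 with nuclei assigned on their own. Single levels moved beyond their counting interval for 34 values with means of nuclei, while 200 did not. The numbers that moved and did not were 43 and 173 with 20 neighbours and 51 and 120 with Leiden clusters. They were 73 and 152 with doublets kept and 108 and 126 with nuclei assigned on their own. Depth limits the smallest classes most, such as mural-like nuclei at P3.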
